A study of Mus musculus with 6 samples.

Results

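The NFAT factors Nfatc1, Nfatc2 and Nfatc3, the catalytic calcineurin subunits Ppp3ca and Ppp3cc and the calcineurin inhibitor Rcan1 were followed across sorted mouse CD4+ T cells. These 6 genes were chosen by their symbols in the platform annotation, and each was measured by 1 probe set, which makes 6 of 19938 genes measured and 6 of the 23410 probe sets with a gene symbol. The cells came from draining lymph nodes of male Bcl6 reporter mice, 8 to 10 weeks old, in which a red fluorescent protein reports Bcl6, after immunisation with KLH (the limpet protein haemocyanin) in CFA, an oil adjuvant with killed mycobacteria. All groups share that reporter and that immunisation, and all cells were CD4+ and CD44+. The groups were Cxcr5+Bcl6+, Cxcr5+Bcl6- and Cxcr5-Bcl6- cells, named by surface Cxcr5, the receptor that guides lymphocytes into B cell follicles, and by the reporter. Each group had 2 arrays that the series describes as biological replicates. The labels describe neither pooling of mice nor restimulation of the sorted cells.

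When the T cell receptor is engaged, calcium enters the cell and binds calmodulin, which activates calcineurin, a phosphatase built from a catalytic and a regulatory subunit. Calcineurin removes phosphates from NFAT proteins, which then move into the nucleus and bind DNA, often beside AP-1 proteins or other partners. Kinases return NFAT to the cytoplasm, and RCAN proteins inhibit calcineurin. In mice, Nfatc1 and Nfatc2 are known to be needed for follicular helper T cell differentiation, and calcineurin and NFAT are the pathway that cyclosporin A and tacrolimus block. NFAT activity is set mainly by phosphorylation and location of the protein, which an RNA array does not measure.

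Values are normalised probe-set levels on the log2 scale, so a difference of 1 is a 2-fold change. Differences were tested with limma on all 6 arrays and called at an adjusted p under 0.05. The order of the sort genes followed the labels: the mean level of Bcl6 was 11.5 ± 0.0696 in Cxcr5+Bcl6+ cells, 10.56 ± 0.00685 in Cxcr5+Bcl6- cells and 10.31 ± 0.00243 in Cxcr5-Bcl6- cells (SD, n = 2 each). The Bcl6 change of 0.25 between the Bcl6- groups did not pass the threshold (adjusted p = 0.103). Cxcr5 averaged 11.0, 9.94 and 7.47 in that order of groups. It thus also differed between the groups labelled Cxcr5+ (1.05, adjusted p = 2.15e-05). Genes of the T cell core were well above background in all groups, with 0 of 11 measured markers at or below a level of 7.57, the 95th percentile of 1390 olfactory, vomeronasal and trace-amine receptor probe sets that T cells are not known to use. The 6 members lay above that level on all arrays. At low levels Cxcr5+Bcl6+ arrays read higher, with a median change of 0.2426 for these receptor probe sets against Cxcr5-Bcl6- cells, while the median change of all probe sets was 0.04. In such bulk samples, fewer cells that use a gene and less RNA per cell cannot be told apart.

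Nfatc2 and Nfatc3 were highest in Cxcr5+Bcl6+ cells and lowest in Cxcr5-Bcl6- cells, with Cxcr5+Bcl6- cells between them. Nfatc2 (probe set 10489961) encodes a factor present in resting T cells, also called NFAT1. Its levels were 10.83 and 10.95 in Cxcr5+Bcl6+ cells, 10.46 and 10.58 in Cxcr5+Bcl6- cells and 9.95 and 10.15 in Cxcr5-Bcl6- cells. The 3 groups did not overlap. Nfatc2 was 1.79-fold higher in Cxcr5+Bcl6+ cells relative to Cxcr5-Bcl6- cells (log2 change 0.84, SE 0.101, adjusted p = 5.13e-05), and 2.62% of all probe sets lay as far above 0. It was 1.39-fold higher in Cxcr5+Bcl6- cells relative to Cxcr5-Bcl6- cells (0.47, SE 0.101, adjusted p = 0.0112) and 1.29-fold higher in Cxcr5+Bcl6+ cells relative to Cxcr5+Bcl6- cells (0.37, SE 0.101, adjusted p = 0.019). Neighbouring groups were not separated in every fit. The rise of Cxcr5+Bcl6- over Cxcr5-Bcl6- cells missed the threshold when Cxcr5-Bcl6- replicate 1 (adjusted p = 0.0674) or Cxcr5+Bcl6- replicate 2 (adjusted p = 0.112) was left out and with all rows tested (adjusted p = 0.0681), while that between the Cxcr5+ groups missed it on leaving out Cxcr5+Bcl6+ replicate 2 (adjusted p = 0.105) or Cxcr5+Bcl6- replicate 1 (adjusted p = 0.165) and with all rows (adjusted p = 0.0648).

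Nfatc3 (probe set 10574962), which encodes NFAT4, a factor with a known part in thymocyte survival, showed the same order with the smallest spread of the 3 NFAT members. Levels were 12.28 and 12.25 in Cxcr5+Bcl6+ cells, 11.72 and 11.75 in Cxcr5+Bcl6- cells and 11.37 and 11.4 in Cxcr5-Bcl6- cells. The gap between the nearest arrays of neighbouring groups was 0.5 at the upper step and 0.32 at the lower. Nfatc3 was 1.84-fold higher in Cxcr5+Bcl6+ cells relative to Cxcr5-Bcl6- cells (0.88, SE 0.0853, adjusted p = 9.26e-06) and 1.44-fold higher in Cxcr5+Bcl6+ cells relative to Cxcr5+Bcl6- cells (0.53, SE 0.0853, adjusted p = 0.000854). Both calls held in all 17 alternative fits. The rise of 1.27-fold in Cxcr5+Bcl6- over Cxcr5-Bcl6- cells (0.35, SE 0.0853, adjusted p = 0.0211) was less firm: leaving out either Cxcr5+Bcl6- array (adjusted p = 0.147 and adjusted p = 0.209) or either Cxcr5-Bcl6- array (adjusted p = 0.071 and adjusted p = 0.0525) lost the call, as did testing all rows (adjusted p = 0.0683).

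Nfatc1 (probe set 10459944) encodes NFAT2, whose short form is induced by the T cell receptor through NFAT itself. Its levels were 11.53 and 11.75 in Cxcr5+Bcl6+ cells, 11.64 and 11.75 in Cxcr5+Bcl6- cells and 11.8 and 12.03 in Cxcr5-Bcl6- cells. The order was thus opposite to that of Nfatc2 and Nfatc3, but the Cxcr5+ groups overlapped and no neighbours in it were separated by the test. The change was -0.28 in Cxcr5+Bcl6+ against Cxcr5-Bcl6- cells (SE 0.111, 95% interval -0.52 to -0.03, adjusted p = 0.0773), -0.22 in Cxcr5+Bcl6- against Cxcr5-Bcl6- cells (adjusted p = 0.292) and -0.06 between the Cxcr5+ groups (adjusted p = 0.756). The first of these passed in 6 of 17 alternatives, with the replicate number as a block among them (adjusted p = 0.0413). The probe set gives 1 value per gene, so short and long forms are not separated.

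**Figure D1:**
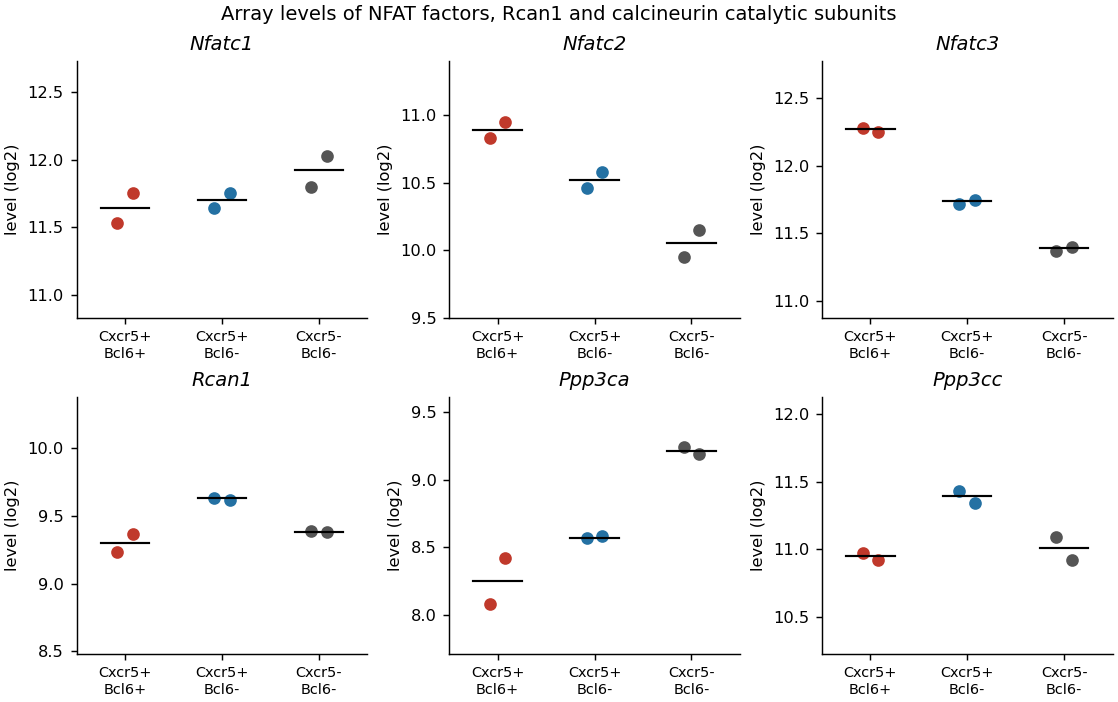
Array levels (log2) of Nfatc1, Nfatc2, Nfatc3, Rcan1, Ppp3ca and Ppp3cc in Cxcr5+Bcl6+, Cxcr5+Bcl6- and Cxcr5-Bcl6- cells, with 1 point per array (n = 2 each) and a bar at the group mean; every panel spans the same range of log2 units. Nfatc2 and Nfatc3 step down and Ppp3ca steps up towards Cxcr5-Bcl6- cells, while Rcan1 and Ppp3cc are highest in Cxcr5+Bcl6- cells.

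The promoter table of RefSeq (build GRCm38.p6) held 2 start sites each for Nfatc2, Nfatc3 and Rcan1, and the 250 bases before each start were read. They were searched on both strands for GGAAA, the core of NFAT sites, for TGACTCA or TGAGTCA, a full AP-1 site, and for TTCCTNGAA, a Bcl6 site. The upstream start of Nfatc2 is shown because Nfatc2 rose with the sort and NFAT cores lie in it, with GGAAA and its complement TTTCC in capitals (minus strand, chr2:168601658-168601907).
Nfatc2 upstream start: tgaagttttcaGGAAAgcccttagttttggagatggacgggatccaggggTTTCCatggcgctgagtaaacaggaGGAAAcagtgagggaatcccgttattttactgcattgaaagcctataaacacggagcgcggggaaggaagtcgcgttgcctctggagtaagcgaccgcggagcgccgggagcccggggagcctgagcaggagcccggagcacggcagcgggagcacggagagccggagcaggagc
This window held 3 cores, which began 239, 200 and 175 bases before the start, and 6.39% of all 32851 windows held at least 3. The downstream start of Nfatc2 held 1 core and those of Nfatc3 held 1 and 0, where 55.6% of all windows held at least 1. No AP-1 or Bcl6 letters were found in these 4 windows. Such matches describe the letters and not binding.

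Among calcineurin subunits, Ppp3ca changed most against Cxcr5-Bcl6- cells, in the opposite direction to Nfatc2 and Nfatc3. Ppp3ca (probe set 10496338) encodes calcineurin A alpha, a catalytic subunit abundant in neurons. Levels were 8.08 and 8.42 in Cxcr5+Bcl6+ cells, 8.57 and 8.58 in Cxcr5+Bcl6- cells and 9.24 and 9.19 in Cxcr5-Bcl6- cells. The Cxcr5-Bcl6- arrays stood apart above all others, and the Cxcr5+Bcl6+ arrays had the widest spread of any member (SD 0.241). Ppp3ca was 1.95-fold lower in Cxcr5+Bcl6+ cells relative to Cxcr5-Bcl6- cells (-0.97, SE 0.112, adjusted p = 3.66e-05) and 1.56-fold lower in Cxcr5+Bcl6- cells relative to Cxcr5-Bcl6- cells (-0.64, SE 0.112, adjusted p = 0.0032). In Cxcr5+Bcl6- against Cxcr5-Bcl6- cells, 1.23% of all probe sets lay as far below 0. Both calls held in all 17 alternatives. The difference between the Cxcr5+ groups, -0.32, did not pass the threshold (SE 0.112, 95% interval -0.57 to -0.08, adjusted p = 0.0524), and passed in 10 of 17 alternatives, where its adjusted p ran between 0.0102 and 0.322.

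Ppp3cc (probe set 10421293), which encodes the calcineurin A gamma subunit best known from testis, had a different pattern. Levels were 10.97 and 10.92 in Cxcr5+Bcl6+ cells, 11.43 and 11.34 in Cxcr5+Bcl6- cells and 11.09 and 10.92 in Cxcr5-Bcl6- cells. Only the Cxcr5+Bcl6- arrays stood apart, above both other groups, which overlapped. The gene was 1.36-fold lower in Cxcr5+Bcl6+ cells relative to Cxcr5+Bcl6- cells (-0.44, SE 0.095, adjusted p = 0.00533) and 1.3-fold higher in Cxcr5+Bcl6- cells relative to Cxcr5-Bcl6- cells (0.38, SE 0.095, adjusted p = 0.0244). Between Cxcr5+Bcl6+ and Cxcr5-Bcl6- cells the change was -0.06 (95% interval -0.27 to 0.15, adjusted p = 0.671), and its sign turned to 0.05 after renewed quantile normalisation. Neither call held when Cxcr5+Bcl6- replicate 1 was left out (adjusted p = 0.0638 and adjusted p = 0.231), and the rise over Cxcr5-Bcl6- cells was also lost without Cxcr5+Bcl6- replicate 2 (0.0895), without Cxcr5-Bcl6- replicate 2 (0.135) and with all rows tested (0.0933).

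The other calcineurin genes gave no call in any comparison. Ppp3cb, the beta catalytic subunit, had mean levels of 11.33 ± 0.0296 in Cxcr5+Bcl6+ cells, 11.26 ± 0.0488 in Cxcr5+Bcl6- cells and 11.2 ± 0.147 in Cxcr5-Bcl6- cells (SD, n = 2 each). For Cxcr5+Bcl6+ against Cxcr5-Bcl6- cells the 95% interval of its change was -0.09 to 0.34, which leaves out a fall of the size seen for Ppp3ca. Ppp3r1, the regulatory subunit calcineurin B, averaged 10.11 ± 0.01, 10.09 ± 0.0789 and 10.24 ± 0.0123 in that order of groups. Ppp3r2, its counterpart in testis, read 5.41 to 5.45 on average, below the 7.57 taken as background. Among NFAT factors, Nfatc4, known from heart and neurons, also lay below 7.57 (group means 7.03 to 7.18). Nfat5, the family member that responds to osmotic stress and is not controlled by calcineurin, changed by -0.22 in Cxcr5+Bcl6+ against Cxcr5-Bcl6- cells (95% interval -0.43 to -0.01, adjusted p = 0.107).

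Rcan1 (probe set 10440993) encodes a feedback inhibitor of calcineurin and is itself a classic NFAT target. Levels were 9.23 and 9.37 in Cxcr5+Bcl6+ cells, 9.63 and 9.62 in Cxcr5+Bcl6- cells and 9.39 and 9.38 in Cxcr5-Bcl6- cells. The Cxcr5+Bcl6- arrays were the highest, and the arrays of the other groups lay close together below them. Rcan1 was 1.26-fold lower in Cxcr5+Bcl6+ cells relative to Cxcr5+Bcl6- cells (-0.33, SE 0.0894, adjusted p = 0.0182), a call that was lost when Cxcr5+Bcl6+ replicate 1 was dropped (adjusted p = 0.0938), as it was on dropping Cxcr5+Bcl6- replicate 1 (0.131) or 2 (0.114). The change of 0.24 in Cxcr5+Bcl6- against Cxcr5-Bcl6- cells did not pass (SE 0.0894, 95% interval 0.05 to 0.44, adjusted p = 0.119), nor did the -0.09 in Cxcr5+Bcl6+ against Cxcr5-Bcl6- cells (95% interval -0.28 to 0.11, adjusted p = 0.512). The related inhibitors stayed without a call: Rcan3 averaged 9.67 to 9.72 over the groups, and Rcan2, at 6.55 to 6.58, was below 7.57.

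Both Rcan1 windows are shown because only the downstream start, inside the gene and known for the transcript that calcineurin induces, holds NFAT cores. GGAAA or TTTCC and the AP-1 site are in capitals (build GRCm38.p6, minus strand, chr16:92466170-92466419 and chr16:92400079-92400328).
Rcan1 upstream start: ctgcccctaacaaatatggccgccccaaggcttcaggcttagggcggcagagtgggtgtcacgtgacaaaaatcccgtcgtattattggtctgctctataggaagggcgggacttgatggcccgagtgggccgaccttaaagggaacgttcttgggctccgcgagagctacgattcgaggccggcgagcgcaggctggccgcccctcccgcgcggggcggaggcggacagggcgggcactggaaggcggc
Rcan1 downstream start: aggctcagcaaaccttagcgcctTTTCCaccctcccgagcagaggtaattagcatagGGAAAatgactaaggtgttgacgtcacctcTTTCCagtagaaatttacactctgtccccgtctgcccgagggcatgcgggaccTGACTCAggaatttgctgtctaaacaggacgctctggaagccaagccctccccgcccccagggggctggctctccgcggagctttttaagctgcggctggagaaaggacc
The downstream window held 3 cores, 227, 193 and 163 bases before the start, and 1 AP-1 site 110 bases before it. At least 3 cores together with an AP-1 site were found in 0.32% of all windows, and an AP-1 site, with or without cores, in 4.46%. The combination counted is the one that this window holds, so its share is a description and not a test. The upstream window held 0 of either, and neither window held the Bcl6 letters, which 1.31% of all windows held. The probe positions were not analysed here, so the Rcan1 level could not be assigned to either start.

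In Cxcr5+Bcl6+ against Cxcr5-Bcl6- cells, 2 of the 6 members were called higher and 1 lower, where 35.3% of all probe sets were called (17.6% higher and 17.7% lower). The 4 calls in Cxcr5+Bcl6- against Cxcr5-Bcl6- cells, 3 higher and 1 lower, stood beside 11.1% of all probe sets called (5.22% higher and 5.93% lower). Between Cxcr5+Bcl6+ and Cxcr5+Bcl6- cells 2 members were called higher and 2 lower, beside 26.4% of all probe sets (13.4% higher and 13.0% lower). The share of members called was above the background share in each comparison, with 3 of 6 beside 35.3% in Cxcr5+Bcl6+ against Cxcr5-Bcl6- cells. This was not tested because the members were chosen with results known. On all arrays the 6 members lay above the receptor level taken as background. The share of all probe sets also counted probe sets below that level. The effect of this difference in level on the shares was not tested. The comparisons share arrays and are not independent.

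**Figure D2:**
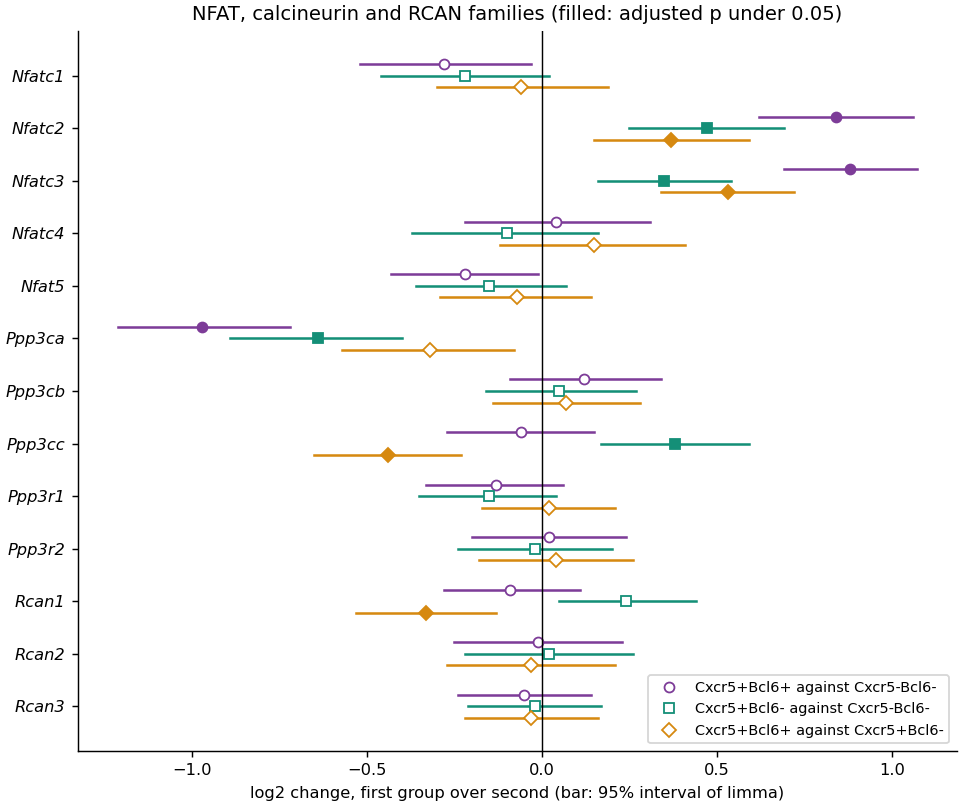
Log2 changes (x axis, first group over second) of all NFAT, calcineurin and RCAN genes (y axis) in the 3 comparisons, with 95% limma intervals; filled symbols passed an adjusted p under 0.05. Nfatc2 and Nfatc3 lie to the right of 0 in all comparisons, and Ppp3ca lies to the left. Nfatc1, Nfatc4, Nfat5, Ppp3cb, Ppp3r1, Ppp3r2, Rcan2 and Rcan3 have no filled symbol.

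Differences between 2 probe sets on the same array are free of a constant shift between arrays, though not of a shift that depends on level, and were set relative to their mean in Cxcr5-Bcl6- cells. Nfatc2 minus Nfatc1 was 1.17 and 1.07 in Cxcr5+Bcl6+ cells, 0.69 and 0.69 in Cxcr5+Bcl6- cells and 0.01 and -0.01 in Cxcr5-Bcl6- cells, so the arrays of a group lay closer together than for either gene alone. Nfatc3 minus Nfatc1 was 1.28 and 1.03, then 0.61 and 0.53, then 0.1 and -0.1 in the same order of groups. In this difference the arrays of each group lay further apart than for Nfatc3 alone. Nfatc3 minus Nfatc2 stayed between -0.16 and 0.11 on all arrays. For the catalytic subunits, Ppp3cc minus Ppp3ca was 1.1 and 0.71 in Cxcr5+Bcl6+ cells, 1.07 and 0.97 in Cxcr5+Bcl6- cells and 0.06 and -0.06 in Cxcr5-Bcl6- cells. The Cxcr5+ groups overlapped in this difference, and both stood above Cxcr5-Bcl6- cells. Ppp3cb minus Ppp3ca was 1.28 and 0.9 in Cxcr5+Bcl6+ cells, 0.67 and 0.72 in Cxcr5+Bcl6- cells and 0.08 and -0.08 in Cxcr5-Bcl6- cells. These differences were not tested, and they show unequal change without saying which gene moved.

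**Figure D3:**
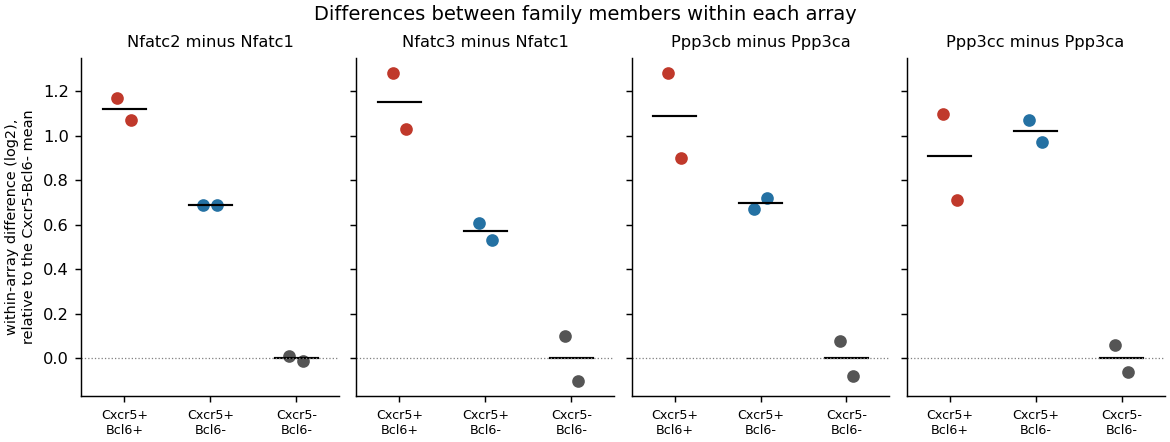
Within-array differences in log2 level (y axis) for Nfatc2 minus Nfatc1, Nfatc3 minus Nfatc1, Ppp3cb minus Ppp3ca and Ppp3cc minus Ppp3ca, relative to the Cxcr5-Bcl6- mean (dotted line), with 1 point per array and a bar at the mean of 2. All Cxcr5+ arrays lie at 0.53 or above, and all Cxcr5-Bcl6- arrays lie within 0.1 of 0.

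Genes with the nearest pattern were ranked for the members whose group means spanned at least 0.5, by the root mean square difference over the 6 arrays after each gene's own mean was removed, among 18708 genes. For Nfatc2, whose group means spanned 0.84, the nearest were Gramd1a (0.041), Prkd2 (0.047) and Abca7 (0.047), in log2 units. For Nfatc3, with a span of 0.88, they were Zer1 (0.033), Lbh (0.035) and Celf2 (0.037). For Ppp3ca, with a span of 0.97, they were Camkk2 (0.052), a kinase gene whose product is activated by calmodulin, Eno3 (0.06) and Ifngr2 (0.062). Mean Camkk2 levels were 8.35 in Cxcr5+Bcl6+ cells, 8.78 in Cxcr5+Bcl6- cells and 9.36 in Cxcr5-Bcl6- cells. The genes compared share all 6 arrays, so this nearness is a description with no test.

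Upstream of calcineurin, genes of calcium entry, release and clearance moved both ways in Cxcr5+Bcl6+ cells. Of 19 measured genes, 10 were higher and 4 lower than in Cxcr5-Bcl6- cells (median change 0.32, against 0.04 over 19938 genes, of which 16.4% were higher and 17.7% lower). The channel gene Orai2 rose by 1.13 (adjusted p = 2.64e-06), the calcium store sensor gene Stim1 by 0.92 (adjusted p = 1.49e-05) and Plcg1, whose product makes the messenger that releases stored calcium, by 0.88 (adjusted p = 1.19e-05). Orai1, which encodes the main pore of store-operated entry in T cells, was lower instead, at 10.36 and 10.51 in Cxcr5+Bcl6+ cells, 11.02 and 10.94 in Cxcr5+Bcl6- cells and 11.28 and 11.37 in Cxcr5-Bcl6- cells. Its change was -0.89 against Cxcr5-Bcl6- cells (adjusted p = 1.79e-05) and -0.55 against Cxcr5+Bcl6- cells (adjusted p = 0.00124), and its groups did not overlap. Atp2a2, the pump that refills the store, was lower too, with changes of -0.77 against Cxcr5-Bcl6- cells (adjusted p = 3.53e-05) and -0.63 against Cxcr5+Bcl6- cells (adjusted p = 0.000322). Mcu, the mitochondrial calcium channel gene, named after its values were seen, changed by -0.96 against Cxcr5-Bcl6- cells (adjusted p = 4.66e-05) and -0.62 against Cxcr5+Bcl6- cells (adjusted p = 0.00198). Between the Cxcr5+ groups 7 of the 19 genes were called higher and 3 lower, beside 11.8% and 13.2% of all genes. In Cxcr5+Bcl6- against Cxcr5-Bcl6- cells 6 were higher, led by Orai2 (0.57) and Stim1 (0.52), and 1 lower. Of all genes, 5.5% were higher and 5.49% lower there. Under the alternatives the 7 rises went down to 3 and the 6 rises to 2.

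**Figure D4:**
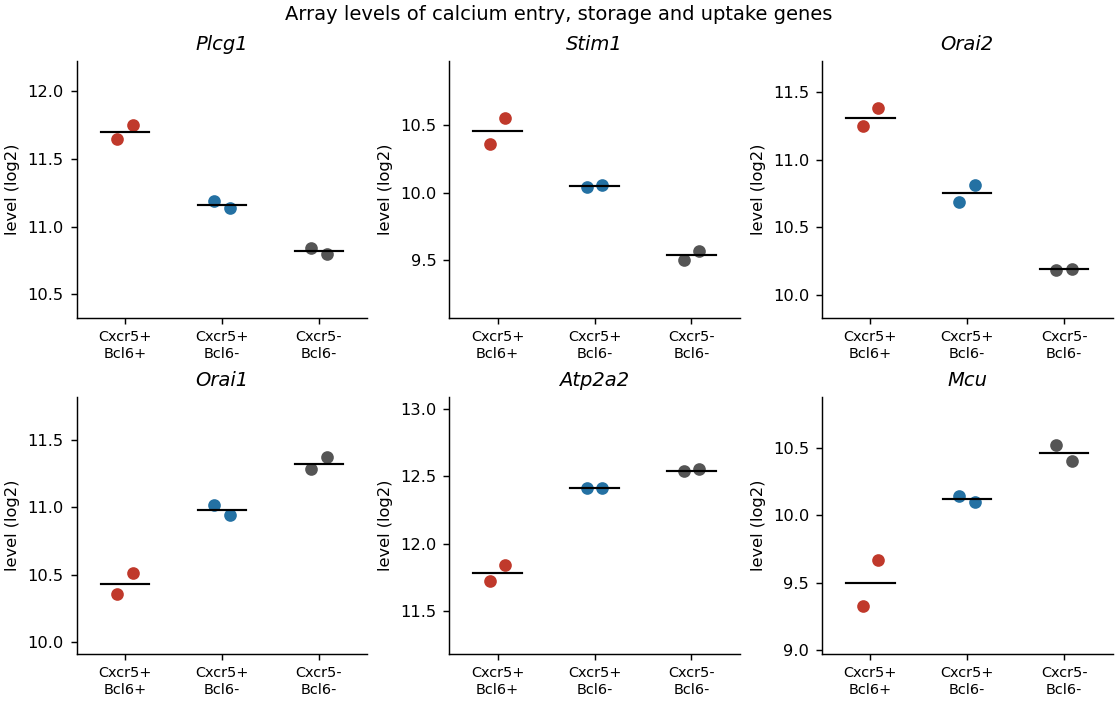
Array levels (log2) of Plcg1, Stim1, Orai2, Orai1, Atp2a2 and Mcu in the 3 groups, with 1 point per array (n = 2 each), a bar at the group mean and the same span of log2 units in every panel. Plcg1, Stim1 and Orai2 are highest in Cxcr5+Bcl6+ cells, where Orai1, Atp2a2 and Mcu are lowest.

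Of 8 kinases that phosphorylate NFAT, 3 were higher in Cxcr5+Bcl6+ cells relative to Cxcr5-Bcl6- cells and the same 3 were higher than in Cxcr5+Bcl6- cells, with 0 lower. Of all genes, 16.4% were higher and 17.7% lower in the first of these comparisons, and 11.8% and 13.2% in the second. The kinases called were Dyrk1b (0.65, adjusted p = 0.000205, and 0.52, adjusted p = 0.0018), Gsk3b (0.5, adjusted p = 0.000809, and 0.31, adjusted p = 0.0206), which encodes an export kinase of NFAT, and Csnk1e (0.27, adjusted p = 0.0386, and 0.37, adjusted p = 0.011). The call of Csnk1e against Cxcr5-Bcl6- cells was lost in 9 of 17 alternatives, and that of Gsk3b against Cxcr5+Bcl6- cells in 5. In Cxcr5+Bcl6- against Cxcr5-Bcl6- cells 0 of the 8 were called, where 5.5% of all genes were higher and 5.49% lower. Among the 10 inhibitors and scaffolds of calcineurin, Rcan1 included, only Chp1, a calcineurin-like protein that inhibits the phosphatase, was called in Cxcr5+Bcl6+ against Cxcr5-Bcl6- cells (0.51, adjusted p = 0.00134). It was also the only call of that list in Cxcr5+Bcl6- against Cxcr5-Bcl6- cells (0.36, adjusted p = 0.0344), lost in 5 of 17 alternatives. The 10.0% of that list called higher stood beside 16.4% of all genes in the former comparison and 5.5% in the latter.

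Most DNA-binding partners and known targets of NFAT were called lower in Cxcr5+Bcl6+ cells relative to Cxcr5-Bcl6- cells. Of 12 partners, 7 were lower and 2 higher than in Cxcr5-Bcl6- cells (median -0.91), among them Foxp3 (-2.89), the factor that defines regulatory T cells, Irf4 (-1.55) and the AP-1 genes Fos (-1.55) and Jun (-1.26), each with an adjusted p of 9.05e-07 or less. Of 29 targets, 22 were lower and 5 higher (median -1.31), and against Cxcr5+Bcl6- cells 23 were lower and 5 higher (median -0.96). Over all 19938 genes 16.4% were higher and 17.7% lower in the first of these comparisons, and 11.8% and 13.2% in the second. The 5 targets higher than in Cxcr5-Bcl6- cells were Tox (0.93), Pdcd1 (0.6), Dgka (0.6), Rnf128 (0.59) and Il21 (0.54). Rnf128 lay near the 7.57 taken as background, with means of 7.66 in Cxcr5+Bcl6+ cells, 7.16 in Cxcr5+Bcl6- cells and 7.08 in Cxcr5-Bcl6- cells. At low levels Cxcr5+Bcl6+ arrays read higher, with a median change of 0.2426 for the receptor probe sets against Cxcr5-Bcl6- cells. Il21 was lower than in Cxcr5+Bcl6- cells (-0.72). Ifng, the interferon gamma gene, had levels of 7.5 and 7.5 in Cxcr5+Bcl6+ cells, just below the 7.57 taken as background, 12.8 and 12.82 in Cxcr5+Bcl6- cells and 11.6 and 11.67 in Cxcr5-Bcl6- cells. Il3 read 5.31 and 5.44 in Cxcr5+Bcl6+ cells, also below 7.57, against 11.11 and 10.99 in Cxcr5+Bcl6- cells and 10.05 and 9.75 in Cxcr5-Bcl6- cells. In Cxcr5+Bcl6- against Cxcr5-Bcl6- cells the targets called higher were led by Csf2 (1.47), Il21 (1.27), Ifng (1.17) and Il3 (1.15). The target list was mixed there, with 7 higher and 7 lower, beside 5.5% and 5.49% of all genes. Under the alternatives these counts ran from 4 to 9 and from 3 to 7. Of the 12 partners, 6 were lower and 2 higher in the same comparison (median -0.3). Among them Maf, known to drive Il21, changed by 0.79 (adjusted p = 0.000163) and Jun by -0.99 (adjusted p = 3.58e-05). These lists were drawn up with earlier results of these data known, so their direction is not independent evidence.

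**Figure D5:**
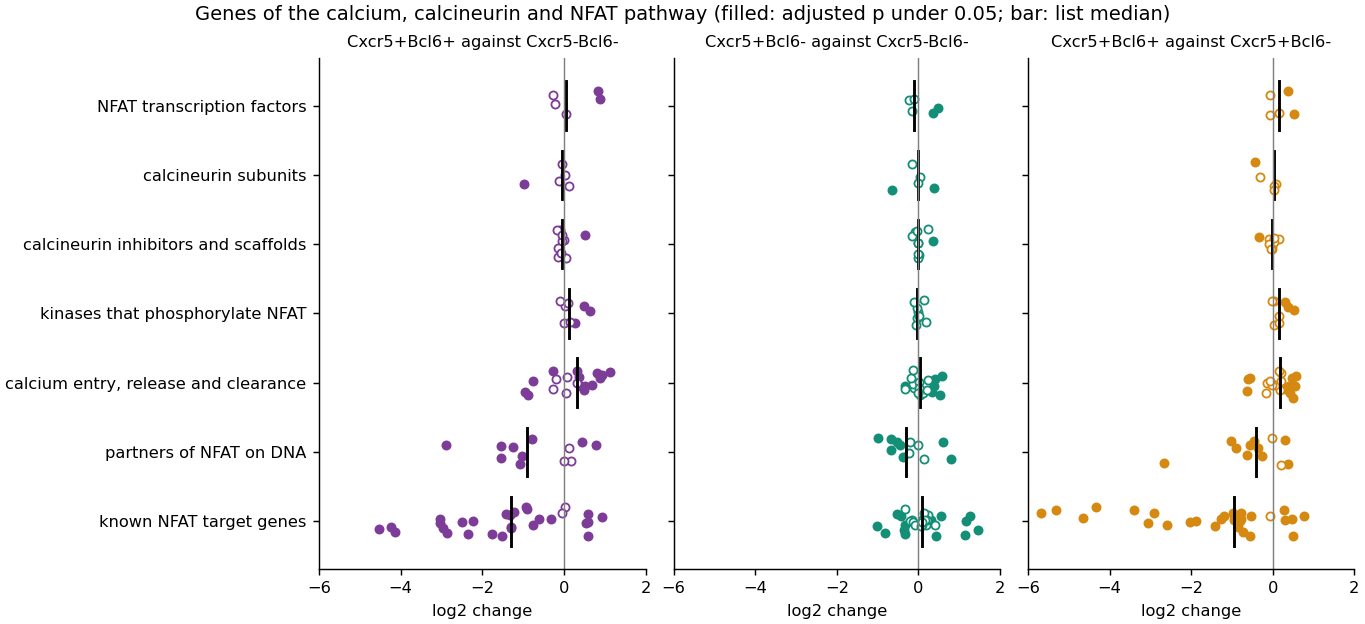
Log2 changes (x axis) of the genes of 7 pathway lists (y axis) in Cxcr5+Bcl6+ against Cxcr5-Bcl6-, Cxcr5+Bcl6- against Cxcr5-Bcl6- and Cxcr5+Bcl6+ against Cxcr5+Bcl6- cells, with filled points past an adjusted p of 0.05 and a black bar at each list's median. Known NFAT targets reach -5.67 (Il3) in the comparison of the Cxcr5+ groups, a difference from a level below the 7.57 taken as background in Cxcr5+Bcl6+ cells, whereas NFAT factors and calcineurin subunits stay within 1 unit of 0.

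Markers of other cells differed between the groups beside these genes. Of 12 measured B cell markers, 8 were higher and 2 lower in Cxcr5+Bcl6+ cells relative to Cxcr5-Bcl6- cells, and their mean level was 8.07 to 8.14 on Cxcr5+Bcl6+ arrays, 7.65 to 7.71 on Cxcr5+Bcl6- arrays and 7.27 to 7.33 on Cxcr5-Bcl6- arrays. This is the order of groups seen for Nfatc2 and Nfatc3. At or below 7.57 were 5 of the 12 in Cxcr5+Bcl6+ cells, 6 in Cxcr5+Bcl6- cells and 7 in Cxcr5-Bcl6- cells, with Cd79a, Blk and Cr2 among them in all groups. Of 14 myeloid and dendritic cell markers, 10 were lower and 1 higher in Cxcr5+Bcl6+ cells relative to Cxcr5-Bcl6- cells, with mean levels of 7.65 to 7.67, 7.84 to 7.86 and 8.78 to 8.79 in the same order of groups, which is the order of groups seen for Ppp3ca. Of these, 9, 7 and 5 were at or below 7.57. Of 5 CD8 T and NK cell markers, 3 were lower and 1 higher (7.31 to 7.42, 7.44 to 7.49 and 7.82 to 7.87). T cell core genes had mean levels of 12.41 to 12.46, 12.39 to 12.4 and 12.31 to 12.32, with 4 of 11 higher and 3 lower in Cxcr5+Bcl6+ cells relative to Cxcr5-Bcl6- cells. Over all 19938 genes 16.4% were higher and 17.7% lower in this comparison, beside which the counts of every marker list stand. The part of other cells in the changes of Nfatc2, Nfatc3 and Ppp3ca was not tested.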

How the data were processed

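RNA of 6 samples was hybridised to Affymetrix whole-transcript arrays. The deposited values are log2 levels per probe set, normalised by the authors. Tools in the submitters' processing notes are RMA, GCOS 1.1 and Affymetrix Expression Console, with no settings. The log2 scale was read from the values, and the genome build was not given in the sources used here. Of 35556 rows, 21789 had 1 gene symbol, 1621 several and 12146 none here. Symbols came from the platform annotation and were updated through Entrez identifiers for 21698 probe sets. Limma 3.58.1 in R 4.3.3 was fitted to group means of all 6 arrays and tested on simulated data, with Benjamini-Hochberg adjustment over 23410 named probe sets (3 residual and 8.25 prior degrees of freedom). Lists used the probe set with the highest mean per gene, and 130 of 136 listed genes were measured. The rule for naming genes took the members, the other NFAT, calcineurin and RCAN genes and up to 4 called genes per list and comparison by smallest p. Not every gene that it took is described. Some genes, such as Mcu, Tox, Pdcd1, Dgka and Rnf128, were named outside it. Members and lists were chosen with earlier results of these data known. Having 2 arrays per group limits the precision. The p-values rest on the spread within all groups, combined with a prior spread estimated over all named probe sets. Alternatives varied the eBayes prior, normalisation, level filter, features, arrays, threshold and replicate block.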

Additional observations from a re-analysis of the deposited data

How the results depend on the processing

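The calls of Nfatc2 and Nfatc3 as higher and of Ppp3ca as lower in Cxcr5+Bcl6+ against Cxcr5-Bcl6- cells, of Ppp3ca as lower in Cxcr5+Bcl6- against Cxcr5-Bcl6- cells and of Nfatc3 as higher in Cxcr5+Bcl6+ against Cxcr5+Bcl6- cells held in all 17 alternative fits. For Cxcr5+Bcl6+ against Cxcr5-Bcl6- cells, the 1 member called lower became 2 with an intensity trend, with centred arrays, above the median level and at an adjusted p under 0.1, where Nfatc1 joined Ppp3ca; leaving out an array gave 1 to 2. With the replicate block it was also 2. Deviations of same-numbered arrays correlated at -0.234 (Cxcr5+Bcl6+ with Cxcr5-Bcl6-), -0.046 (Cxcr5+Bcl6+ with Cxcr5+Bcl6-) and 0.258 (Cxcr5-Bcl6- with Cxcr5+Bcl6-). With 2 arrays per group each pair of groups gives a single such value, which cannot show whether the replicate numbers pair the samples. For Cxcr5+Bcl6- against Cxcr5-Bcl6- cells, the 3 members called higher became 0 with all rows tested and 0 at a minimum of 1.5-fold, and 0 to 3 when an array was left out. Between the Cxcr5+ groups, the 2 called higher became 1 with all rows and 0 at 1.5-fold, and the 2 called lower became 0 at 1.5-fold; leaving out an array gave 1 to 2 higher and 0 to 3 lower. Signs turned only for changes that were never called: Ppp3cc in Cxcr5+Bcl6+ against Cxcr5-Bcl6- cells was 0.0539 after quantile normalisation, 0.018 after cyclic loess and -0.149 to 0.026 when an array was left out (0.026 without Cxcr5-Bcl6- replicate 1), and Nfatc1 between the Cxcr5+ groups was 0.0071 after cyclic loess and -0.1678 to 0.0562 when an array was left out (0.0562 without Cxcr5+Bcl6+ replicate 1, 0.0023 without Cxcr5+Bcl6- replicate 2). With an array left out, the lone array of its group was assumed to vary like the others. The cause of these shifts was not tested.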
